A study of Mus musculus with 10 samples.

Results

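Tob1, Tob2, Btg1, Btg2 and Btg3 belong to the Tob and Btg family of antiproliferative proteins, and their transcripts were followed in mouse bone marrow cells enriched for haematopoietic stem cells, with and without the histone methyltransferase Mll. All probe sets of the array annotated to these 5 symbols were taken, which gave 13 of the 45037 probe sets that measured transcripts. Of these, 2 were annotated to Tob1, 5 to Tob2, 3 to Btg1 and 2 to Btg2, and the remaining one carried the symbols Btg3 and Gm7334 together. Gm7334 is a transcribed pseudogene, and a probe set with both symbols names neither gene, so no value is given for Btg3 alone. RNA came from 5 control mice of genotype Mll F/F and 5 mice of genotype Mx1-cre;Mll F/F, each on 1 Affymetrix Mouse Genome 430 2.0 array. All were 8 week old females on a B6.SJL-Ptprca Pep3b/BoyJ background. Both groups carried the floxed Mll alleles and received 3 injections of polyinosinic:polycytidylic acid at 10 µg per gram plus 50 µg, given 48 hours apart. This interferon inducer switches on Mx1-cre, a transgene that acts in interferon-responsive cells and is not confined to blood stem cells. On day 6, LSK/CD48- cells were sorted, the lineage-negative fraction with Sca-1 and Kit and without CD48, and RNA of 1500 to 10000 cells was amplified before labelling. Control mice carried no cre, so cre and Mll loss cannot be told apart.

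Tob and Btg proteins share a conserved N-terminal domain that binds the catalytic deadenylase subunits of the Ccr4-Not complex, which shortens the poly(A) tails of messenger RNAs and so speeds their decay. Tob1 and Tob2 also carry motifs that bind the cytoplasmic poly(A) binding protein, and they can be brought to particular messages by RNA-binding proteins of the Cpeb family. Btg1 and Btg2 bind the arginine methyltransferase Prmt1, and in lymphocytes they help to hold resting cells in quiescence. Btg2 is also an early response gene and a target of p53, and Btg1 is a target of the Foxo factors. When overexpressed, members of the family slow the passage from G1 into S phase.

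The 250 bases before the annotated start of Tob1, Btg1 and Btg2 are shown because these are the 3 genes with a probe set that was lower on every Mll-deficient array than on any control array. They were read from RefSeq (GRCm38.p6), 5′ to 3′ on the strand of the gene, and capitals mark the words found in them.
Tob1, chr11:94211204-94211453, plus strand: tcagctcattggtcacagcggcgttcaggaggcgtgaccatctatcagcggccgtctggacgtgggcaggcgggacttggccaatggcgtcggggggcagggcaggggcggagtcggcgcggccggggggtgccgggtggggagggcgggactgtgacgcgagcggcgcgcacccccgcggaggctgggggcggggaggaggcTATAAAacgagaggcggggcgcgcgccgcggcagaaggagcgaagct
Btg1, chr10:96616751-96617000, plus strand: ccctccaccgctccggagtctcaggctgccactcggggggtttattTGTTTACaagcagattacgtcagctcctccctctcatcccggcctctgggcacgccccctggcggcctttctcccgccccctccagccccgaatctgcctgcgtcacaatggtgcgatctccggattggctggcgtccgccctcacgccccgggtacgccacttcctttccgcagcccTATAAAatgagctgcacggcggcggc
Btg2, chr1:134079156-134079405, minus strand: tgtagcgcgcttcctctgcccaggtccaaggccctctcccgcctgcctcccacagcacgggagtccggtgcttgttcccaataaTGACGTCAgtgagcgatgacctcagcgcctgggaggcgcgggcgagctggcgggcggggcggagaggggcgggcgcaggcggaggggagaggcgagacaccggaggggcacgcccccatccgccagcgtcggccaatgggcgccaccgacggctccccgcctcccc

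Both strands were searched for the cAMP response element TGACGTCA, the AP-1 word TGANTCA, the Egr word GCGTGGG, the Foxo word GTAAACA, the E-box CACGTG, the GATA word AGATAA and the CArG box of serum response factor. The word TATAAA of the TATA box was added after the sequences had been seen. The window of Btg2 held the cAMP response element, which starts 166 bases before the transcript start and which 1.55% of all 32851 promoter windows of this length held. The window of Btg1 held the Foxo word on the opposite strand, 204 bases before the start, as 3.17% of all windows held it. TATAAA stood 26 bases before the start in Btg1 and 47 bases before it in Tob1, and 12.4% of all windows held it on one of the strands. No other searched word was found in these 3 windows, and none of the words was found in the windows of Tob2 and Btg3. The RefSeq span of Tob1 begins further upstream, at position 94209842, so the window shown precedes one of its annotated starts. Tob2 lies on chromosome 15, Btg3 on chromosome 16 and Gm7334 on chromosome 17.

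The deposited values are linear signals that had been scaled to the same trimmed mean on every array, and they were compared on a scale of log2(signal + 16), written as Mll-deficient minus control. Signals of different probe sets depend on their probes, so their heights are not set against each other. The median signal of the arrays lay between 18.1 and 28.9, and correlations between arrays over the 27022 tested probe sets lay between 0.889 and 0.964. Control replicate 5 had the lowest mean correlation with its group, at 0.918, and the highest 3' to middle ratio of Gapdh and Actb, a sign of RNA quality, at 5.24 against 1.73 to 3.42 on the other controls and 2.37 to 3.87 on the Mll-deficient arrays (log2). Kmt2a, the gene of Mll, read 260 ± 85.8 in controls and 216 ± 97.2 (SD, n = 5 per group) in Mll-deficient samples on its brighter probe set, which is a log2 change of -0.38 ± 0.35 (SE) that did not pass (limma without a filter, adjusted p = 0.736). Its other probe set, at -0.55 ± 0.31, did not pass either (adjusted p = 0.498), and where either lies relative to the excised exons was not examined.

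Of the sorted fraction's own markers, Kit, Procr, Slamf1, Tek, Cd34, Hlf, Mecom and Ptprc were all above the low-signal filter. The summed signal of these 8 genes was 4819 to 8329 on control arrays and 2684 to 4942 on Mll-deficient arrays. Erythroid markers moved the other way, with a summed signal of 9 genes of 1771 to 6971 in controls and 10429 to 14864 in Mll-deficient samples. Of the 9 genes 8 rose in limma (adjusted p under 0.05), as did 3.76% of all 12580 genes tested. Of 11 granulocyte and monocyte markers 0 passed in limma, 3 had an unadjusted p under 0.05, and their sum was high in both groups, at 112673 to 172181 and 119823 to 200661, with the neutrophil granule gene Ngp at 20237 ± 4849 and 21911 ± 4742 (SD, n = 5 per group). Over all 12580 genes tested, 2606 had an unadjusted p under 0.05. The 7 B cell markers summed to 961 to 6476 and 1348 to 4896, the 6 megakaryocyte markers to 1697 to 4638 and 1337 to 2536, and the 6 macrophage markers to 181 to 579 and 153 to 263. The 6 T and natural killer cell markers summed to 258 to 603 and 618 to 1337, ranges that did not overlap, while Cd3e, Cd3g and Cd4 were below the filter. Most of this sum came from Nkg7, at 447 ± 145 in controls and 871 ± 278 in Mll-deficient samples (SD), with overlapping groups. Nkg7 did not pass in limma (0.96 ± 0.28, SE, adjusted p = 0.0583), and neither did Cd3d or Cd8a. The 4 genes Cd48, Flt3, Il7r and Dntt, which mark progenitors outside the gate or primed for the lymphoid fate, summed to 3557 to 9649 and 1672 to 4767. Fewer cells of a type and less RNA per cell cannot be told apart in such samples, and the part of these markers in the results on the family was not tested.

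In the fit of the 2 groups over all 10 arrays without covariates, Tob1 was the only family gene with a probe set that passed, and all 5 Mll-deficient arrays lay below every control. Probe set 1423176_at read 151, 108, 197, 238 and 135 on control replicates 1 to 5. On Mll-deficient replicates 1 to 5 it read 32.9, 87.9, 69.8, 99.8 and 58.2. The groups did not overlap, and the lowest control, replicate 2, stood just above the highest Mll-deficient array, replicate 4. Mean signal fell from 166 ± 51.5 to 69.7 ± 26.1 (SD, n = 5 per group), which is a log2 change of -1.10 ± 0.27 (SE, adjusted p = 0.0336), or 2.14-fold (95% interval 1.44 to 3.19). Of all 27022 probe sets tested, 3.28% passed, 2.12% higher and 1.16% lower, and 2.42% were lower without overlap of the groups. Among the 12 family probe sets tested, 1 fell and 0 rose, and 3 were lower without overlap.

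The call of Tob1 stood close to the threshold. It was lost when control replicate 1, 3 or 4 or Mll-deficient replicate 1, 3 or 5 was left out (adjusted p between 0.0713 and 0.0919), and with quantile normalization, median centring or no filter (adjusted p = 0.0512, 0.0787 and 0.0575). Without control replicate 5 it was -1.15 (adjusted p = 0.0304). The size changed less than the call, between -1.23 and -0.91 over the 10 reduced fits, each without 1 array. The other Tob1 probe set, 1440844_at, lay below the filter, between 1.15 and 17.1 in controls and between 1.59 and 9.25 in Mll-deficient samples. Without the filter it was at -0.09 ± 0.19 (SE, adjusted p = 0.900), and the mean of both Tob1 probe sets, at -0.60 ± 0.19, did not pass (adjusted p = 0.0800).

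**Figure D1:**
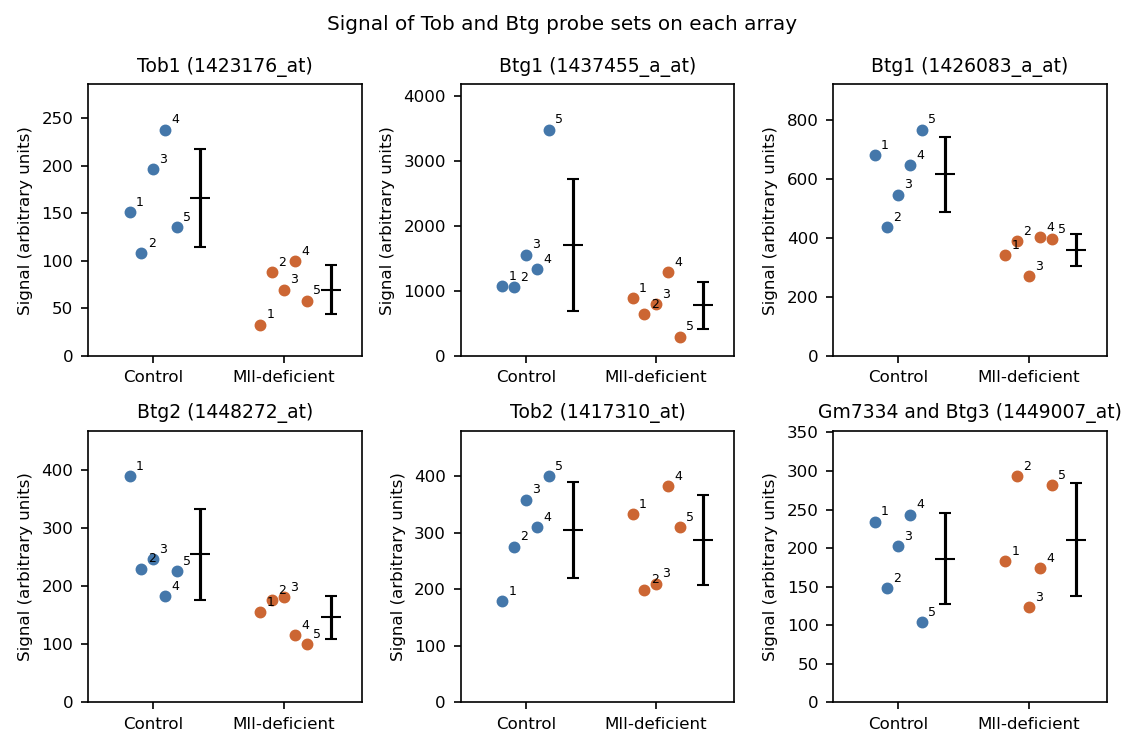
Signal (arbitrary units, linear axis from 0) of 6 probe sets on each array, with the replicate number beside each point and the mean ± SD of 5 arrays as a black bar. The groups are apart for Tob1 1423176_at, Btg1 1426083_a_at and Btg2 1448272_at, they overlap for Tob2 1417310_at and for the probe set of Gm7334 and Btg3, and Btg1 1437455_a_at has control replicate 5 at 3484 above all other arrays.

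Tob2, the closest relative of Tob1, showed no difference that passed on any of its 5 probe sets. Probe set 1417310_at read 179.6, 275, 358, 309 and 399.8 on control replicates 1 to 5 and 333, 199, 210.0, 382 and 310.4 on Mll-deficient replicates 1 to 5. The groups lay across each other, with the lowest and the highest of all 10 arrays both among the controls. The means were 304 ± 84.4 and 287 ± 79.5 (SD, n = 5 per group), and the difference was -0.08 ± 0.25 (SE, adjusted p = 0.913), with a 95% interval from -0.61 to 0.46.

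The other Tob2 probe sets did not share one direction. Probe set 1448666_s_at was at -0.38 ± 0.31 (SE), 1448667_x_at at -0.47 ± 0.36, 1417309_at at 0.27 ± 0.26 and 1431776_at at -0.03 ± 0.33, with adjusted p-values between 0.534 and 0.971, and 0 of the 5 had an unadjusted p under 0.05. For 1448667_x_at, Mll-deficient replicates 2, 3 and 5 read 89.9, 35.1 and 69.2, below the lowest control at 93.2, while replicates 1 and 4 read 182 and 191. For 1417309_at, Mll-deficient replicates 1 and 3 read 153 and 104, above the highest control at 78.7. The dimmest, 1431776_at, lay between 6.38 and 59.6 over all arrays. The intervals of all 5 probe sets included 0, and they reached down to -1.23 (1448667_x_at) and up to 0.81 (1417309_at).

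Btg1, an antiproliferative gene that is high in resting lymphocytes and falls when they start to divide, was lower in Mll-deficient samples on each of its 3 probe sets, but 0 passed in limma, although all 3 had an unadjusted p under 0.05. Their p-values ranked 1214, 1806 and 3973 among the 27022 tested probe sets. Probe set 1426083_a_at read 682, 436, 547, 648 and 767 on control replicates 1 to 5. On Mll-deficient replicates 1 to 5 it read 343, 389.9, 271, 401 and 395. All Mll-deficient arrays lay below all controls. The means were 616 ± 128 and 360.0 ± 54.7 (SD, n = 5 per group), which is a change of -0.74 ± 0.22 (SE, adjusted p = 0.0716), or 1.67-fold lower with a 95% interval from 1.22 to 2.28.

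Probe set 1437455_a_at read 1074, 1060.3, 1561, 1341 and 3484 on control replicates 1 to 5 and 885, 639, 793, 1291 and 297 on Mll-deficient replicates 1 to 5. Control replicate 5 stood far above the others, Mll-deficient replicate 5 far below, and Mll-deficient replicate 4 lay within the range of the controls. The difference was -1.10 ± 0.36 (SE, adjusted p = 0.105), as large as that of Tob1 with a wider error, and it was -0.80 (adjusted p = 0.161) without control replicate 5 and -0.80 (adjusted p = 0.254) without Mll-deficient replicate 5. Control replicate 5 was also the array with the highest 3' to middle ratio, and the part of RNA quality in this value was tested only by adding the ratio to the fit. With the ratio as a covariate both probe sets passed, at -0.76 (adjusted p = 0.0166) and -1.17 (adjusted p = 0.0222), in a fit that called 2433 of all probe sets in place of 887.

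The third Btg1 probe set, 1442018_at, was dim, at 27.3 to 47.6 in controls and 1.19 to 44.3 in Mll-deficient samples. Of the Mll-deficient arrays, 4 lay below every control and replicate 1 lay among them, and the difference was -0.66 ± 0.28 (SE, adjusted p = 0.223). The size depended on the offset added before the logarithm, from -1.38 with an offset of 1 to -0.27 with 64. With log2 values averaged over a gene's probe sets, Btg1 passed, at -0.83 ± 0.22 (adjusted p = 0.0392 over genes), the only family gene that did so.

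Btg2, the early response and p53-regulated member, was lower on both of its probe sets, of which 0 passed and 1 had an unadjusted p under 0.05. That p-value ranked 1933 among the 27022 tested probe sets. Probe set 1448272_at read 389, 230.1, 246, 183 and 226 on control replicates 1 to 5 and 156, 176, 181, 116 and 100.4 on Mll-deficient replicates 1 to 5. The groups did not overlap, but control replicate 4, at 183, and Mll-deficient replicate 3, at 181, were nearly equal. The means were 255 ± 78.5 and 146 ± 36.2 (SD, n = 5 per group), which is a change of -0.73 ± 0.24 (SE, adjusted p = 0.112), or 1.66-fold lower with a 95% interval from 1.16 to 2.37. This difference passed in none of the fits that kept all arrays or left out 1 array, where it ranged from -0.83 to -0.57. The dimmer probe set 1416250_at read 104, 73.6, 98.2, 38.0 and 57.2 in controls and 65.3, 17.4, 93.2, 42.6 and 32.4 in Mll-deficient samples, which overlapped, with a difference of -0.51 ± 0.31 (SE, adjusted p = 0.424).

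The probe set annotated to both Gm7334 and Btg3, 1449007_at, read 234, 148, 202, 243 and 104 on control replicates 1 to 5 and 183, 293, 124, 174 and 282 on Mll-deficient replicates 1 to 5. The groups overlapped, with Mll-deficient replicates 2 and 5 above the highest control, and the difference was 0.16 ± 0.28 (SE, adjusted p = 0.818), with a 95% interval from -0.42 to 0.75. Btg4, the remaining mouse member, which acts in oocytes, was dim, at 6.03 to 27.2 in controls and 5.34 to 25.1 in Mll-deficient samples.

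**Figure D2:**
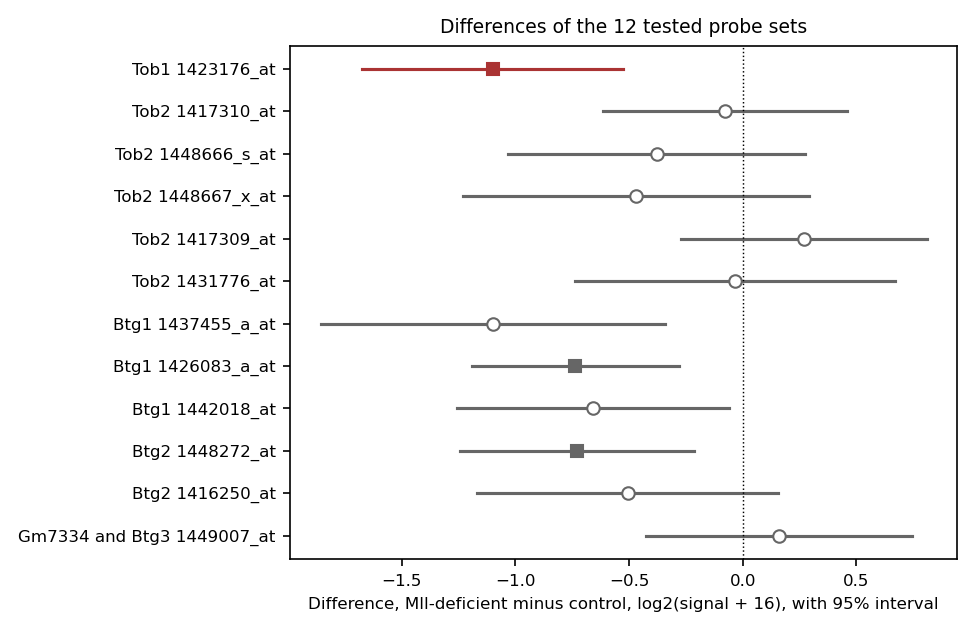
Log2 difference (Mll-deficient minus control, log2(signal + 16)) of the 12 tested family probe sets with the 95% interval of the limma fit, where filled squares mark groups that do not overlap and red marks an adjusted p under 0.05. Tob1 1423176_at at -1.10 is the only one in red, and the 3 Btg1 probe sets and Btg2 1448272_at have intervals that lie below 0 without passing after adjustment.

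Of the 12 family probe sets tested, 10 had a difference below 0, as had 57.1% of all probe sets tested. Their median was -0.49, against -0.07 over all probe sets tested. Several of these probe sets are annotated to the same gene, so they are not counted as independent values. The interval of Tob1 overlapped those of all Btg1 and Btg2 probe sets and of every Tob2 probe set except 1417309_at. It did not overlap that of the probe set of Gm7334 and Btg3 either, and the differences between family members were not tested.

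**Figure D3:**
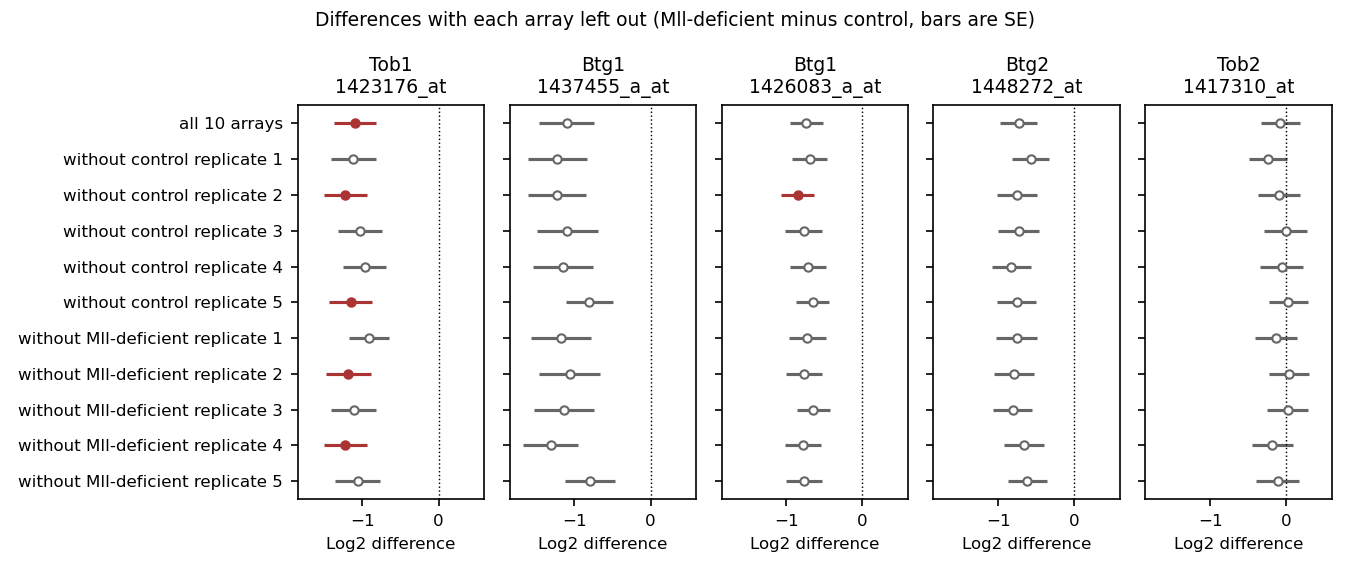
Log2 difference (Mll-deficient minus control, bars are SE) of 5 family probe sets with all 10 arrays and with each array left out in turn, where filled red points have an adjusted p under 0.05. Tob1 stays between -1.23 and -0.91 and passes in 4 of the 10 reduced fits, Btg1 1426083_a_at passes without control replicate 2, and Tob2 stays near 0.

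The machinery that Tob and Btg proteins act through was examined next, with each gene at its brightest probe set and p-values adjusted over 12580 genes, of which 5.52% passed (3.76% higher and 1.76% lower) and whose median difference was -0.04. Of 9 tested Ccr4-Not subunits, 0 passed in limma, 2 had an unadjusted p under 0.05, and the median was -0.17. For comparison, 2606 of all 12580 genes had an unadjusted p under 0.05. Cnot7, the deadenylase that Tob and Btg proteins bind, had mean signals of 504 and 519.7 in the control and Mll-deficient groups (0.09 ± 0.24, adjusted p = 0.873), and its paralog Cnot8 was at -0.20 ± 0.24 (adjusted p = 0.704). Cnot9, a non-catalytic subunit, was higher on every Mll-deficient array (308 to 325 against 189 to 236) but did not pass, at 0.53 ± 0.18 (adjusted p = 0.105). Cnot6l, another deadenylase subunit, was at -0.52 ± 0.23 (adjusted p = 0.198).

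Among 9 genes of poly(A) binding proteins and other deadenylases, Pabpc4, an inducible cytoplasmic poly(A) binding protein, rose and 8 did not pass. It rose from 497 ± 122 to 1314 ± 199.5 (SD, n = 5 per group), with no overlap between 387 to 704 in controls and 1044 to 1505 in Mll-deficient samples, which is a change of 1.39 ± 0.21 (SE, adjusted p = 0.00124). Its other tested probe set rose as well, by 1.09 ± 0.26 (adjusted p = 0.0292 over probe sets). Pabpc1, the general cytoplasmic form that Tob proteins bind, was at 0.38 ± 0.19 (adjusted p = 0.266), and Parn, a poly(A)-specific ribonuclease, at 0.47 ± 0.20 (adjusted p = 0.189). The list median was 0.13, and 2 of the 9 genes had an unadjusted p under 0.05.

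Of 11 tested genes whose products bring deadenylases to particular messages, 2 fell and 9 did not pass, with a median of -0.34. Of the 11, 5 had an unadjusted p under 0.05. Cpeb4, a cytoplasmic polyadenylation element binding protein, fell from 794 ± 248 to 339 ± 99.4 (SD, n = 5 per group), which is a change of -1.18 ± 0.27 (SE, adjusted p = 0.0205), and its other tested probe set fell by 1.09 ± 0.24 (adjusted p = 0.0196 over probe sets). Cpeb2, of the same family, fell from 102 ± 38.3 to 38.4 ± 17.5, which is a change of -1.10 ± 0.30 (adjusted p = 0.0404). The call of Cpeb2 was lost in 8 of the 10 reduced fits, and also with median centring, no filter, averaged probe sets or the replicate number as a block (adjusted p = 0.0627, 0.0741, 0.0611 and 0.0547). That of Cpeb4 was lost in 4 reduced fits. Zfp36l2, which binds AU-rich elements, was at -0.72 ± 0.29 (adjusted p = 0.168), and its other tested probe set at -0.11 ± 0.29 (adjusted p = 0.890 over probe sets). Of 10 genes of decapping and 5′ decay 0 passed in limma, 1 had an unadjusted p under 0.05, and the median was -0.21; Pnrc1, at -0.75 ± 0.24 (adjusted p = 0.0878), was nearest.

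Other partners of the family went in both directions. Of 8 tested, Prmt1 rose, Smad1 fell and 6 did not pass, with a median of -0.26, and 4 had an unadjusted p under 0.05. Prmt1 rose from 1457 ± 395 to 2790 ± 305 (SD, n = 5 per group), without overlap, which is a change of 0.96 ± 0.21 (SE, adjusted p = 0.0133), and it passed in all 10 reduced fits. Smad1, a signal transducer of bone morphogenetic proteins, fell from 1378 ± 585 to 569 ± 219, which is a change of -1.25 ± 0.31 (adjusted p = 0.0259), while its other tested probe set, at -0.58 ± 0.28, did not pass (adjusted p = 0.287 over probe sets). The call of Smad1 was lost in 4 of the 10 reduced fits and with averaged probe sets (adjusted p = 0.0723). Nearest among the others were Smad4, the common partner of receptor-regulated Smads, at -0.59 ± 0.20 (adjusted p = 0.0988), and Carm1, another arginine methyltransferase, at 0.57 ± 0.20 (adjusted p = 0.107).

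Lists of genes that share a regulator or a cell cycle step with the family were also counted. Of 16 G1 cyclins, kinases and inhibitors, Cdk4 rose and 15 did not pass at their brightest probe set (median -0.09). Of the 16, 8 had an unadjusted p under 0.05. Cdk4, the kinase partner of D-type cyclins, rose from 1521 ± 448 to 2710 ± 292 (SD, n = 5 per group), which is a change of 0.87 ± 0.21 (SE, adjusted p = 0.0257), a call lost in 8 of the 10 reduced fits and with averaged probe sets (adjusted p = 0.0512). Ccne1, which encodes cyclin E1, did not pass at its brightest probe set (0.78 ± 0.32, adjusted p = 0.178), but its other probe set rose by 1.51 ± 0.21 (adjusted p = 0.00104 over probe sets), so the count for this list depends on the probe set taken. Rb1, the retinoblastoma protein that restrains entry into S phase, was lower on every Mll-deficient array without passing, at -0.84 ± 0.26 (adjusted p = 0.0730). Ccnd1, a cyclin whose message falls when Tob or Btg proteins are overexpressed, was at 0.39 ± 0.24 (adjusted p = 0.392), and the inhibitor Cdkn1b at -0.88 ± 0.30 (adjusted p = 0.0995). The other tested Cdkn1b probe set was at -0.11 ± 0.38 (adjusted p = 0.916 over probe sets).

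Of 16 tested immediate early genes, the class to which Btg2 belongs, 5 had an unadjusted p under 0.05, with a median of -0.43. After adjustment 14 did not pass and 2 fell. These were Egr1, a zinc finger factor (-1.46 ± 0.27, adjusted p = 0.00654), and Fos, a subunit of AP-1 (-1.24 ± 0.32, adjusted p = 0.0334). The call of Fos was lost in 6 of the 10 reduced fits. Klf6, a zinc finger factor, was lower on every Mll-deficient array without passing, at -0.78 ± 0.23 (adjusted p = 0.0619). Its other tested probe sets were at -0.90 ± 0.28, -0.90 ± 0.29, -0.43 ± 0.24 and 0.20 ± 0.26. These did not pass either (adjusted p between 0.0862 and 0.743 over probe sets). Of 12 tested p53 targets 2 fell and 10 did not pass (median -0.16), and of 14 Foxo factors and targets 2 fell and 12 did not pass (median -0.46). An unadjusted p under 0.05 was found for 3 of the p53 targets and 6 of the Foxo list. Over all 12580 genes tested, 1.76% fell and 2606 had an unadjusted p under 0.05. Sesn1, a stress-induced inhibitor of growth signalling that belongs to both lists, fell by 1.33 ± 0.33 (adjusted p = 0.0285), a call lost in 6 of the 10 reduced fits and with median centring (adjusted p = 0.0525). Of its 3 other probe sets 1 passed, at -1.25 ± 0.31 (adjusted p = 0.0343 over probe sets). Trp53inp1, a p53-induced nuclear protein, fell by 1.12 ± 0.24 (adjusted p = 0.0127), while its other tested probe set, at -0.79 ± 0.30, did not pass (adjusted p = 0.165 over probe sets). Ccng2, an atypical cyclin of non-dividing cells, fell by 0.98 ± 0.20 (adjusted p = 0.0106), while its other probe set was at 0.04 ± 0.26 (adjusted p = 0.958 over probe sets) and averaging them ended the call (adjusted p = 0.100). Bcl6, a transcriptional repressor on the Foxo list, was at -1.05 ± 0.30 (adjusted p = 0.0528). Of the p53 targets that did not pass, Phlda3, which encodes a pleckstrin homology domain protein, was nearest and in the other direction. It was higher on every Mll-deficient array, at 0.75 ± 0.22 (adjusted p = 0.0547), and it passed in 5 of the 12 alternatives and in 1 of the 10 reduced fits. Others that did not pass included Cdkn1a, which encodes p21 (0.17 ± 0.28, adjusted p = 0.788), and Mdm2, the negative regulator of p53 (-0.34 ± 0.24, adjusted p = 0.455).

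**Figure D4:**
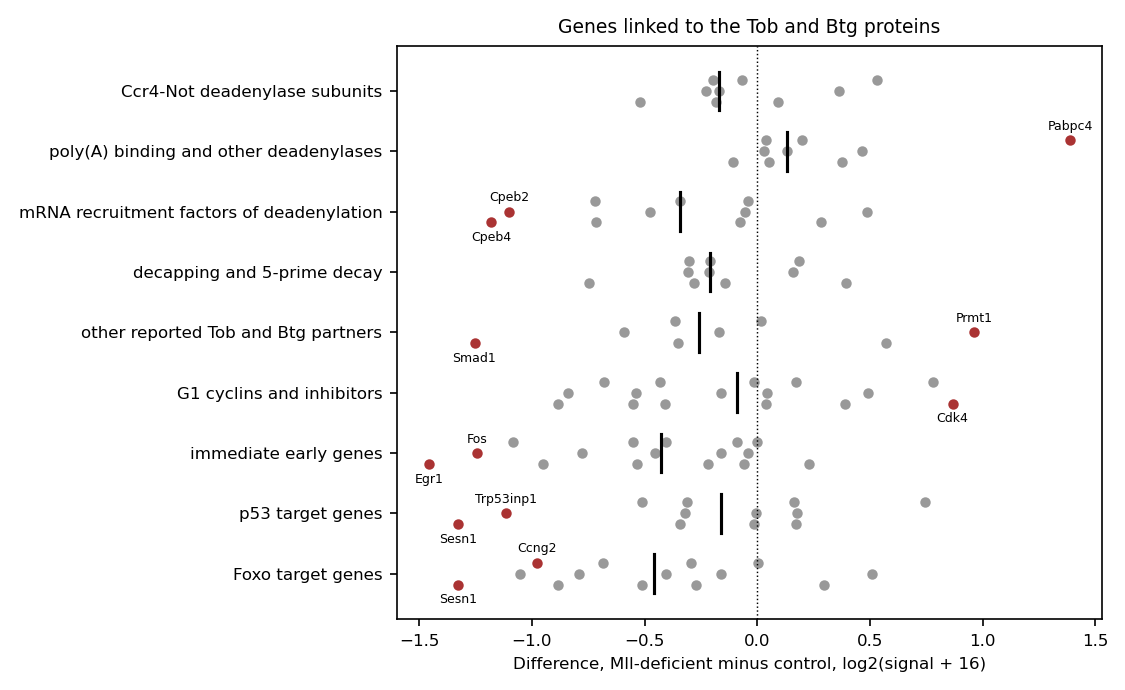
Log2 difference (Mll-deficient minus control, log2(signal + 16)) of each tested gene in 9 lists linked to the Tob and Btg proteins, 1 point per gene at its brightest probe set, with red points for an adjusted p under 0.05 and a black bar for the list median. Pabpc4, Prmt1 and Cdk4 rose, while Cpeb2, Cpeb4, Smad1, Egr1, Fos, Sesn1, Trp53inp1 and Ccng2 fell, and the list medians lie between -0.46 and 0.13.

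To see which genes varied from array to array like the family, each group's mean was subtracted and Pearson's r was taken over the 10 arrays against 12579 other genes. The closest to Tob1 was Socs4, a suppressor of cytokine signalling (r = 0.989), followed by Pex3 (0.935) and Erc1 (0.898). For Tob2 they were Nup54 (0.950), Iars (0.950) and Riok2 (0.940), for Btg1 they were Mcm6 (0.949), Cmtm6 (0.946) and B3galnt2 (0.945), and for Btg2 they were Dgat2 (0.971), Atp6v1e1 (0.924) and Ctif (0.911). These are the highest of many values over few arrays that share RNA quality and scaling, so they are a description only. Between the brightest probe sets of the members, r after subtracting the group means was -0.76 for Tob2 and Btg2, 0.48 for Tob2 and Btg1, -0.18 for Tob1 and Btg2, 0.10 for Tob1 and Btg1, -0.04 for Tob1 and Tob2 and 0.01 for Btg1 and Btg2. These values depended on the probe set, as Btg2 1448272_at had r between -0.32 and 0.36 with the other Tob2 probe sets. Between probe sets of the same gene, r was -0.40 to 0.77 for Tob2, 0.21 to 0.43 for Btg1 and 0.50 for Btg2. The 3' to middle ratio, treated in the same way, had r = 0.70 with Tob2 1417310_at, 0.54 with Btg1 1437455_a_at, -0.42 with Btg2 1448272_at and 0.02 with Tob1 1423176_at.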

How the data were processed

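The deposited table holds 1 linear signal intensity per probe set and array, computed with MAS5 (version 5.0, per the submitters' processing notes) from amplified, biotin-labelled RNA per the labels' protocols. The trimmed mean (2% from each end) of the deposited intensities was 150.001 on all 10 arrays, so each had been scaled to 1 constant. Detection calls and scanner files were not used here. Precision is limited by the number of arrays.

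Of 45101 probe sets, 64 controls were removed. A platform annotation gave 34945 of the rest 1 symbol, updated through Entrez identifiers and RefSeq (GRCm38.p6, 34741 found), 932 several and 9160 none. Values were transformed as log2(signal + 16), which understates changes of dim probe sets. The 27022 probe sets with a mean above the 40th percentile went into a limma fit (limma 3.58.1, R 4.3.3, eBayes with an intensity trend, two-sided, Benjamini-Hochberg over all tested, threshold 0.05), and all adjusted p-values come from such fits. Lists were read from the same fit with 1 probe set, the brightest, for each of 12580 genes. Values given without a filter come from a fit over 45037 probe sets. The procedure was also run on simulated data with independent normal noise for each probe set. These held no array-wide effects, such as RNA quality, so they cannot show how the fit handles them.

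Named genes are all family members, and from each list every gene past the threshold with up to 3 others of smallest p; Cnot7, Cnot8, Ccnd1, Cdkn1a and Mdm2 were named outside this rule for their roles, with values seen. The members and lists were chosen with earlier results of these data known. The replicates are separate mice per the labels. Alternatives were the offset, scaling, filter, unit tested, variance prior, array weights, replicate block, RNA quality covariate and leaving out each array.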

Additional observations from a re-analysis of the deposited data

How the results depend on the processing

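The count of 887 probe sets past the threshold was 588 with no filter and 2433 with the 3' to middle ratio as a covariate, and between 303 and 1131 when 1 array was left out; leaving out control replicate 1, 3 or 4 gave 401, 418 or 436, and leaving out Mll-deficient replicate 1, 3 or 5 gave 582, 380 or 303. Median centring turned the share of higher calls from 64.6% to 81.4%. The count of family probe sets past the threshold was 1, and it was 0 with quantile normalization, median centring and no filter, 3 with the covariate, and between 0 and 2 with 1 array left out. Tob1 1423176_at, at -1.10, no longer passed with quantile normalization (-1.04), median centring (-1.04), no filter (-1.10) and the mean of its probe sets (-0.60), and ranged from -1.23 to -0.91 with 1 array left out. Btg1 1437455_a_at, at -1.10, passed with the mean of its probe sets (-0.83) and the covariate (-1.17), and ranged from -1.31 to -0.80 with 1 array left out. Tob2 1417310_at was 0.0045 with array weights and -0.24 to 0.035 with 1 array left out, and Btg2 1448272_at -0.83 to -0.57. Tob2 1431776_at was above 0 with median centring (0.026), array weights (0.10) and in 3 of 10 reduced fits (-0.27 to 0.24), and the probe set of Gm7334 and Btg3 ranged from -0.014 to 0.32. With the replicate block Tob1 was -1.10 (adjusted p = 0.0365) and 781 probe sets passed; same-numbered arrays did not pair (r between -0.18 and 0.24). The cause of these changes was not tested. Dim probe sets, such as Tob1 1440844_at and Btg1 1442018_at, limit what can be seen.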
